A study of Mus musculus with 8 samples.

Results

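The genes Anpep, Htra1, Smpdl3b, Kntc1 and Hvcn1 were followed across sorted mouse liver macrophages. They are 5 of the 24786 genes in the count files and 5 of the 15254 with enough counts to be tested. They were chosen from these same data, because their shift from wild-type (WT) to dnTGFβRII (TG) mice differed between Kupffer cells and monocyte-derived macrophages. That difference of shifts is called the interaction here, and for these genes it is a description, without a test. The data are 8 polyA RNA libraries from C57BL/6 liver, 2 in each of 4 groups: Kupffer cells of TG mice, Kupffer cells of WT mice, monocyte-derived macrophages (MoM) of TG mice and MoM of WT mice. In TG mice the Cd4 promoter drives a form of TGF-β receptor II that blocks signalling in T cells, and cholangitis follows. Whether the transgene is also active in the macrophages was not tested. The labels give no age, sex, treatment, sort gate or statement on whether the 2 libraries of a group came from separate or pooled animals, so the spread measured between them may be technical.

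Kupffer cells are the resident macrophages of the liver sinusoids, and MoM are macrophages that blood monocytes give rise to. The 5 genes act in unrelated processes. Anpep encodes aminopeptidase N (CD13), a zinc peptidase of the cell surface that trims the N-terminal residue from peptides and is found on many myeloid cells. Htra1 encodes a secreted serine protease that cuts extracellular matrix proteins and modulates TGF-β family signalling. Smpdl3b encodes a membrane-anchored phosphodiesterase related to acid sphingomyelinase, known in macrophages as a brake on Toll-like receptor signalling. Kntc1 encodes ROD, a subunit of the ROD-Zwilch-ZW10 complex that brings dynein and checkpoint proteins to kinetochores in dividing cells. Hvcn1 encodes the voltage-gated proton channel of phagocytes, which lets protons out of the cytosol while the NADPH oxidase moves electrons across the membrane.

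Libraries held 26190194 to 30308132 counts. Levels are given as CPM (each count set against the library total, then corrected with TMM for library composition). They are given for single libraries (n = 2 in a group) or as ranges, and levels per kb of exon are group means. Each value after ± is the SE of a log2 difference. Tgfbr2 had 174 to 349 CPM over the 8 libraries, and whether its counts hold transgene reads beside those of the mouse gene was not tested. Cd4, whose promoter drives the transgene, had 15.45 to 48.03 CPM in Kupffer and 14.23 to 39.7 CPM in MoM libraries. The 10 Kupffer markers summed to 14640 to 28340 CPM in the Kupffer libraries and to 452.5 to 704 CPM in 3 MoM libraries, but to 9212 CPM in MoM WT replicate 1. The 10 endothelial markers summed to 8912 CPM in Kupffer TG replicate 2 and, among MoM, to 5519 CPM in WT replicate 1, while the other 6 libraries had 616 to 2570 CPM. The 11 neutrophil markers summed to 3737 CPM in MoM TG replicate 2 against at most 553.5 CPM elsewhere. These 3 libraries therefore stand apart from the others of their groups. Values of the 5 genes are given with and without Kupffer TG replicate 2 and MoM WT replicate 1. Both are called the libraries rich in endothelial RNA below, though MoM WT replicate 1 was also rich in Kupffer RNA. Leaving both out thus changes more than endothelial RNA, and it leaves Kupffer TG and MoM WT with 1 library each. The other libraries still differ in endothelial RNA, and its part in any value was not tested. In such bulk samples fewer cells of a type and less RNA per cell cannot be told apart.

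**Figure D1:**
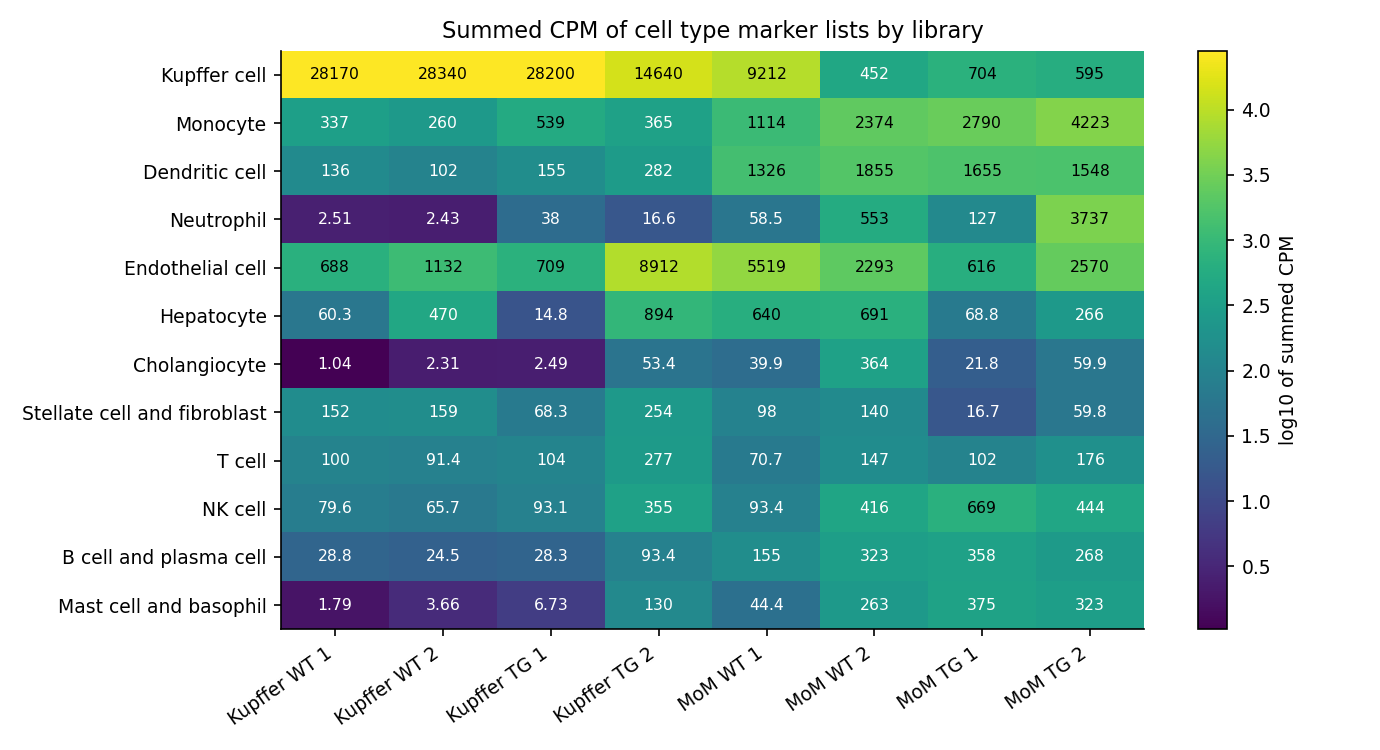
Summed CPM of 12 lists of cell type markers (rows) in the 8 libraries (columns), with colour on a log10 scale and the sum printed in each field. Kupffer markers run from 14640 to 28340 CPM in Kupffer libraries, and MoM WT replicate 1 stands at 9212 CPM among MoM.

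The promoters of 4 of the 5 genes had an entry in the RefSeq promoter table (GRCm38.p6). They are shown because the genes fall into pairs by their shift in Kupffer cells, Anpep and Htra1 being higher in TG and Smpdl3b and Kntc1 lower. Each sequence runs 5′ to 3′ on the strand of its gene and begins 250 bases before the RefSeq start. Bases that GENCODE M21 assigns to an exon were left out for Htra1 (chr7:130935953-130936110, plus strand) and Smpdl3b (chr4:132757253-132757421, minus strand), which leaves 158 and 169 bases. The windows of Anpep (chr7:79848211-79848460, minus strand) and Kntc1 (chr5:123749476-123749725, plus strand) are shown whole. The last 10 bases of the Kntc1 window lie in an exon. Capitals mark matches on either strand to the GC box (GGGCGG), the CCAAT box (CCAAT) and the cell cycle homology region (TTTGAA or TTCGAA).
Anpep: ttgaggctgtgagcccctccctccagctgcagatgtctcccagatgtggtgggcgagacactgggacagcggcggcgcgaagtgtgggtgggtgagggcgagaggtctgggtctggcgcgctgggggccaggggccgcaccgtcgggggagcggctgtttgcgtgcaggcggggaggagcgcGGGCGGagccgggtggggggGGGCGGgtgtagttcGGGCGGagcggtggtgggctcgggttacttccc
Htra1: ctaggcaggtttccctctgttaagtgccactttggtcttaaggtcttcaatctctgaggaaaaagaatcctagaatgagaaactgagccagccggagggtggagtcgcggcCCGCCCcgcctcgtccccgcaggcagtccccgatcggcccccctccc
Smpdl3b: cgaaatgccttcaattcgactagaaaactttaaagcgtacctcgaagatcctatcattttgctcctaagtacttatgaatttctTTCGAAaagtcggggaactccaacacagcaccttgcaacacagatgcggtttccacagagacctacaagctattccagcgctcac
Kntc1: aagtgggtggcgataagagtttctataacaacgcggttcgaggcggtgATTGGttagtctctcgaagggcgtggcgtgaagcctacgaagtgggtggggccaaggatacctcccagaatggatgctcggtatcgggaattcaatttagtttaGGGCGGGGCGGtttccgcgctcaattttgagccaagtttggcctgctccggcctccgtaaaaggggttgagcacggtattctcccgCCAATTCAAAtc

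In the 250 bases the Anpep promoter held 3 GC boxes and 72.8% G or C, against a median of 52.4% over 32851 promoters. This window lies inside the longer GENCODE gene model of Anpep, so that it is the start of 1 of its forms. Kntc1 held 2 GC boxes and 2 CCAAT boxes, the second of which shares bases with a cell cycle homology region. That region lies within the exon bases, and the second CCAAT box lies there in part. Htra1 held 1 GC box and 1 CCAAT box, the latter in the part not printed, and Smpdl3b held 1 CCAAT box in that part as well as 1 cell cycle homology region. Of all promoters, 32.7% held a GC box, 33.8% a CCAAT box and 17.1% a cell cycle homology region. None of the 4 held an E2F site (TTTCCCGC or TTTGGCGC, 1.3% of promoters), a gamma-activated site (TTCNNNGAA, 7.02%), an interferon-stimulated response element (2.98%), an E-box (CACGTG, 6.02%), an AP-1 site (TGANTCA, 6.75%) or a TATA box (TATAAA, 12.4%). The matches are letters in a window and do not show that a factor binds. No promoter is shown for Hvcn1.

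Anpep (ENSMUSG00000039062.15, chromosome 7, 79821803 to 79861059, minus strand, GRCm38) was lowest in WT Kupffer cells. Its level was 7.54 and 6.64 CPM in these, 41.3 and 58.6 CPM in TG Kupffer cells, 105 and 124 CPM in WT MoM and 99.4 and 132 CPM in TG MoM. Both TG Kupffer libraries thus stood far above both WT libraries and below all 4 MoM libraries, while WT and TG MoM overlapped. The ratio of any TG to any WT Kupffer library lay between 5.48 and 8.82, and that in MoM between 0.804 and 1.25. The fitted log2 fold change of TG against WT was 2.82 ± 0.27 (SE) in Kupffer cells and 0.02 ± 0.25 in MoM, which gives an interaction (MoM minus Kupffer) of -2.80 ± 0.36.

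Hvcn1 (ENSMUSG00000064267.13, chromosome 5, 122206804 to 122242297, plus strand) had nearly the same profile. It had 11.2 and 9.93 CPM in WT Kupffer cells, 34.7 and 48.6 CPM in TG Kupffer cells, 65.3 and 75.6 CPM in WT MoM and 54.3 and 71.6 CPM in TG MoM. The order was again WT Kupffer, TG Kupffer and then both MoM groups, whose libraries overlapped. TG stood above WT in Kupffer cells by 3.09 to 4.90 times over the library pairs. The log2 fold change was 1.98 ± 0.26 in Kupffer cells and -0.16 ± 0.25 in MoM, with an interaction of -2.14 ± 0.36. In MoM it was 0.03 once TG replicate 1 was left out. For Anpep in MoM the value, near 0, turned to -0.20 without TG replicate 2, to -0.09 without WT replicate 1 and to -0.12 without both libraries rich in endothelial RNA, and with library totals in place of TMM it was -0.09.

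Markers of other myeloid cells, and of lymphoid and mast cells, moved with this pair in Kupffer cells. Of 10 monocyte markers, 8 were higher in both TG than in both WT Kupffer libraries, and their sum was 260 to 337 CPM in WT and 366 to 539 CPM in TG. The sum was 1114 and 2374 CPM in WT MoM and 2790 and 4223 CPM in TG MoM, with no marker at 0 in a whole group. All 11 neutrophil markers were higher in both TG Kupffer libraries, with sums of 2.43 and 2.51 CPM in WT, where Camp, Elane and Ly6g had no count, and of 16.6 and 38.0 CPM in TG. Of 10 dendritic cell markers 3 were higher in both, with sums of 102 to 136 CPM in WT and 155 to 282 CPM in TG. Of 9 markers each, 6 of B cells, 5 of NK cells, 4 of T cells and 4 of mast cells and basophils were also higher in both TG Kupffer libraries. Their sums in WT and TG were 24.5 to 28.8 and 28.3 to 93.4 CPM for B cells, 65.7 to 79.6 and 93.1 to 355 CPM for NK cells, 91.4 to 100.1 and 104 to 277 CPM for T cells, and 1.79 to 3.66 and 6.73 to 130 CPM for mast cells and basophils. Cpa3, Mcpt8, Fcer1a, Ms4a2 and Mcpt4 of the last list were at 0 in WT, and Mcpt4 in TG. Lower in both TG Kupffer libraries were 1 monocyte marker (Itgam), 1 B cell marker (Cd79b) and 1 T cell marker (Icos). Of the neutrophil, dendritic cell, NK cell, and mast cell and basophil markers 0 were lower in both. Among all genes tested, 16.7% were higher and 17.7% lower in both. The part of these cell types in the levels of Anpep and Hvcn1 was not tested. Without both libraries rich in endothelial RNA the log2 fold change in Kupffer cells was 2.59 for Anpep and 1.76 for Hvcn1, each then resting on TG replicate 1 alone.

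Htra1 (ENSMUSG00000006205.13, chromosome 7, 130936111 to 130985660, plus strand) had opposite shifts in the subsets. It had 0.898 and 1.05 CPM in WT Kupffer cells, 13.6 and 6.78 CPM in TG Kupffer cells, 9.69 and 6.21 CPM in WT MoM and 1.05 and 1.60 CPM in TG MoM. The TG Kupffer and WT MoM libraries were high and overlapped each other, and the WT Kupffer and TG MoM libraries were low. These low groups lay side by side, with 28 counts in both WT Kupffer replicate 2 and TG MoM replicate 1. The log2 fold change of TG against WT was 3.39 ± 0.53 in Kupffer cells and -2.58 ± 0.51 in MoM, an interaction of -5.97 ± 0.74. At 25 to 360 counts a library it was the least covered of the 5 genes.

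Htra1 is also made by cells of connective tissue, and markers of stellate cells and fibroblasts, and of hepatocytes, moved with it in MoM. The 10 markers of stellate cells and fibroblasts summed to 98.0 and 141 CPM in WT MoM and to 16.7 and 59.8 CPM in TG MoM, and 6 of the 10 were lower in both TG libraries. Of 10 hepatocyte markers 9 were lower in both TG MoM libraries, with sums of 640 and 691 CPM in WT and 68.8 and 266 CPM in TG. No marker of either list was at 0 in a whole group, and their part in the lower level of Htra1 in TG MoM was not tested. Of 10 endothelial markers 2 were lower in both TG MoM libraries and 0 higher. Of 10 dendritic cell markers 5 were lower and 1 higher in both. Of 10 cholangiocyte markers 5 were lower and 0 higher in both, and Onecut1 had no count in TG MoM. The shares of all genes tested were 20.04% lower and 19.16% higher in both TG MoM libraries. In Kupffer cells the stellate and fibroblast sum was 152 and 159 CPM in WT and 68.3 and 254 CPM in TG replicates 1 and 2, and the endothelial sum was 688 and 1132 CPM in WT and 709 and 8912 CPM in TG. The median log2 fold change of TG against WT there was 1.55 for the stellate and fibroblast markers (9 of 10 positive). It was 3.80 for the endothelial markers (10 of 10 positive). However, 0 stellate and fibroblast markers were higher in both TG Kupffer libraries and 1 was lower. Of the endothelial markers 1 was higher in both and 0 lower, and of the hepatocyte markers 0 were higher and 0 lower. The part of these cells in the level of Htra1 was not tested. Without both libraries rich in endothelial RNA, Htra1 had a log2 fold change of 3.85 in Kupffer cells and -2.25 in MoM.

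Smpdl3b (ENSMUSG00000028885.8, chromosome 4, 132732966 to 132757252, minus strand) was highest in TG MoM. It had 213 and 106 CPM there, against 20.5 and 27.4 CPM in WT MoM, 15.8 and 14.8 CPM in WT Kupffer cells and 9.22 and 5.09 CPM in TG Kupffer cells. The 4 groups did not overlap. TG stood above WT by 3.85 to 10.4 times over the library pairs in MoM, and TG Kupffer libraries held 0.322 to 0.624 of the WT Kupffer level. The log2 fold change was -1.10 ± 0.43 in Kupffer cells and 2.73 ± 0.44 in MoM, an interaction of 3.83 ± 0.61. The value in Kupffer cells hung on 1 library: it was -0.68 without TG replicate 2 and -1.62 without TG replicate 1. Without both libraries rich in endothelial RNA it was -0.68, and the value in MoM was 2.52.

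Several marker lists were also higher in TG MoM. The 9 NK cell markers summed to 444 and 669 CPM in TG and 93.4 and 416 CPM in WT, with 5 higher in both TG libraries. The 9 mast cell and basophil markers summed to 323 and 375 CPM in TG and 44.4 and 263 CPM in WT, with 4 higher in both, and 5 of the 10 monocyte markers were higher in both. No NK cell or monocyte marker was at 0 in a whole MoM group, and of the mast cell markers Mcpt4 was at 0 in both. Of the 11 neutrophil markers 7 were higher in both TG libraries and 0 lower, with sums of 127 and 3737 CPM in TG and 58.5 and 553.5 CPM in WT. Of the NK cell, monocyte, and mast cell and basophil markers 0 were lower in both. For comparison, 19.16% of all genes tested were higher and 20.04% lower in both TG MoM libraries. The part of these cell types in the level of Smpdl3b was not tested.

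Kntc1 (ENSMUSG00000029414.11, chromosome 5, 123749716 to 123821593, plus strand) was lowest in TG Kupffer cells. It had 4.23 and 4.31 CPM there, against 11.6 and 13.2 CPM in WT Kupffer cells, 11.0 and 10.7 CPM in WT MoM and 15.4 and 16.4 CPM in TG MoM. The 4 groups did not overlap, though WT MoM and WT Kupffer cells lay close. Both TG Kupffer libraries held 0.319 to 0.372 of a WT Kupffer library. In MoM the shift was small, 1.40 to 1.53 times. The log2 fold change was -1.54 ± 0.24 in Kupffer cells and 0.55 ± 0.24 in MoM, an interaction of 2.09 ± 0.34. Without both libraries rich in endothelial RNA these values were -1.50, 0.54 and 2.05.

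**Figure D2:**
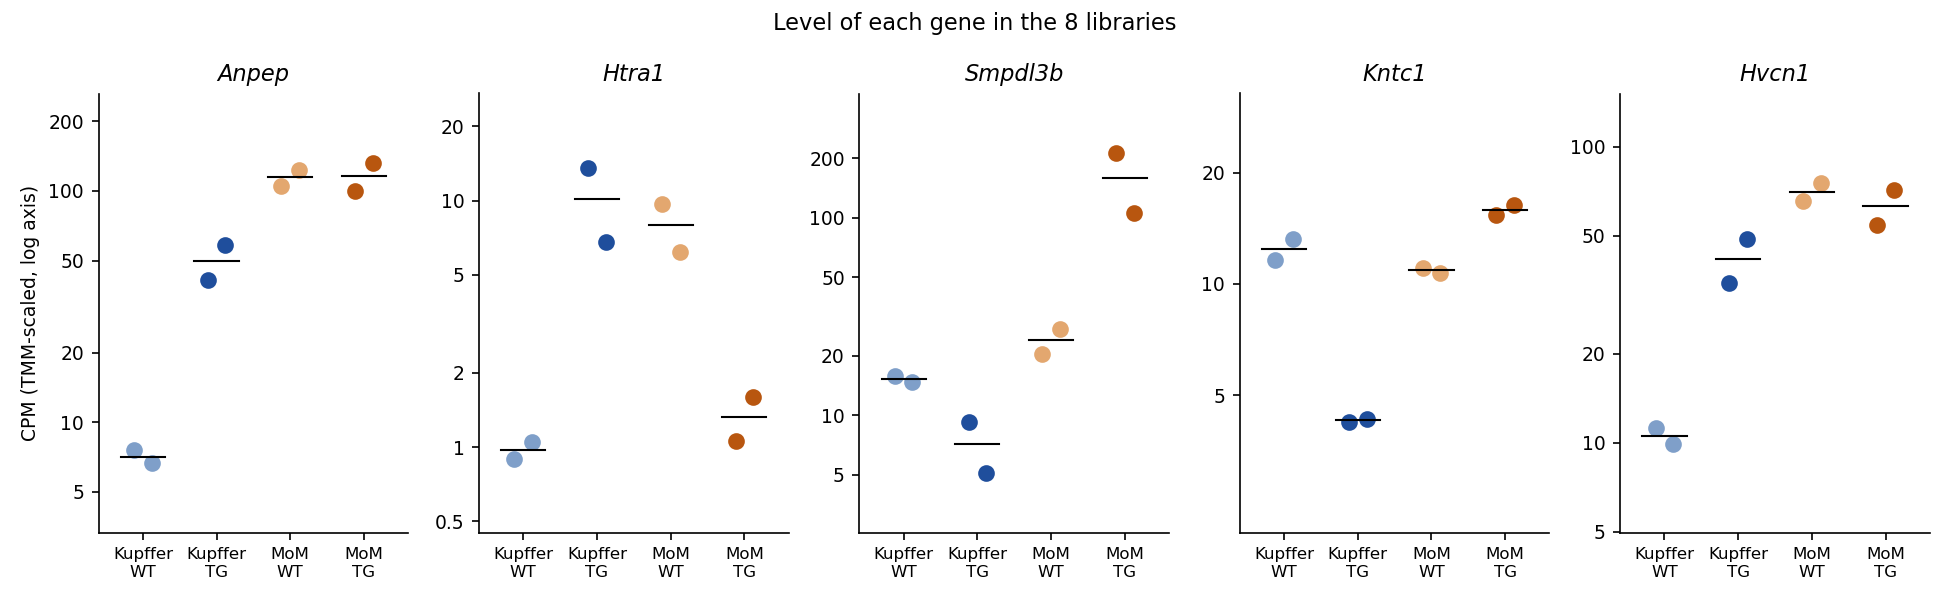
Level of each gene in CPM on a log axis in the 4 groups, 1 point per library, with the group mean as a line. Anpep and Hvcn1 are low in WT Kupffer cells, Htra1 is low in WT Kupffer cells and TG MoM, Smpdl3b is high in TG MoM (106 and 213 CPM) and Kntc1 is low in TG Kupffer cells (4.23 and 4.31 CPM).

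**Figure D3:**
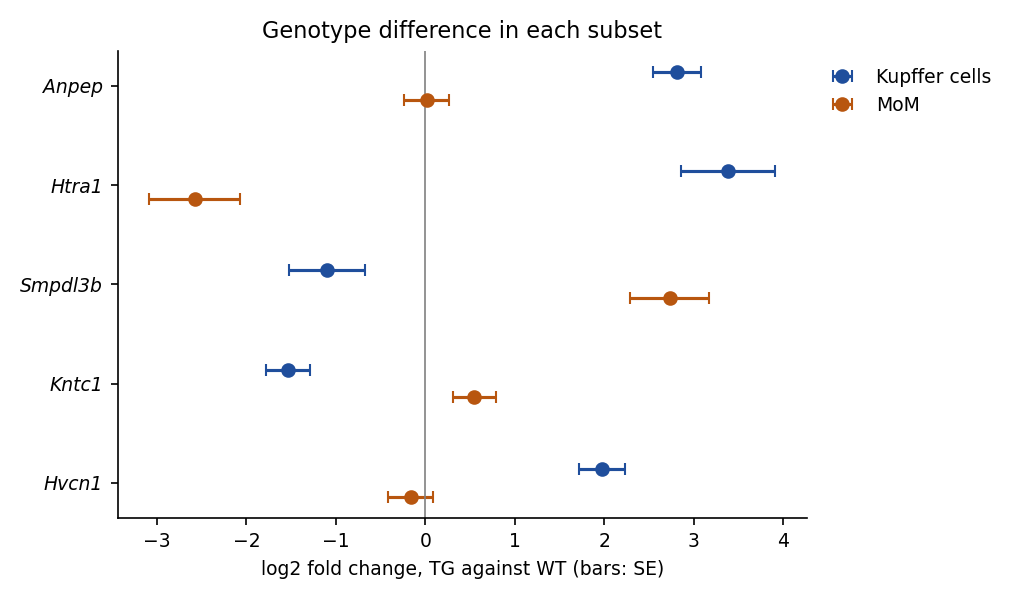
Log2 fold change of TG against WT for each gene, with SE bars from the fit of all 8 libraries, in Kupffer cells (blue) and MoM (orange). Htra1, Smpdl3b and Kntc1 lie on opposite sides of 0, while Anpep and Hvcn1 lie near 0 in MoM (0.02 and -0.16).

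In Kupffer cells the TG and WT libraries did not overlap for 5 of the 5 genes, as for 34.4% of all genes tested, and in MoM for 3 of the 5, as for 39.2% of all. Opposite directions without overlap were seen for 3, Htra1, Smpdl3b and Kntc1, and for 6.58% of all genes. Since the genes were chosen for this contrast, nothing is read from these counts. In edgeR's quasi-likelihood test with Benjamini-Hochberg adjustment no gene of the 15254 was called for the interaction at an adjusted p below 0.05 (0%), and 6.42% had an unadjusted p below 0.05. DESeq2 called 51 genes (0.334%). The 5 genes, chosen on this contrast, stood first in the order of its p, and that order is a description. Rab30, a small GTPase that came next after Hvcn1, had an interaction of -3.54 ± 0.61, from log2 fold changes of 3.14 in Kupffer cells and -0.40 in MoM. The order depended on single libraries. Without Kupffer TG replicate 1, 1 of the 5 genes was among the first 50 (Anpep, at rank 42), and Kntc1 stood at rank 324. Without MoM WT replicate 2, 3 of the 5 were among the first 50, with Kntc1 at rank 68 and Hvcn1 at 72, and without both libraries rich in endothelial RNA 4 were, with Kntc1 at rank 57. The estimates moved less. With 1 library left out, the interaction of Kntc1 ran from 1.99 to 2.14 and that of Smpdl3b, the widest in proportion, from 3.25 to 4.35.

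The authors' deposited table of TG against WT, which names no cell type, lists 179 genes. All 179 had a mean normalized count within 1% of that computed from the Kupffer libraries, and 0 from the MoM libraries, so the values are set beside the Kupffer comparison. In the authors' deposited table Anpep stood at a log2 fold change of 2.83 ± 0.36 (adjusted p = 5.24e-12), Htra1 3.41 ± 0.65 (5.6e-05), Hvcn1 2.00 ± 0.36 (1.13e-05) and Kntc1 -1.52 ± 0.39 (0.0117). Smpdl3b is not in the authors' deposited table. That table rests on the same libraries and is no separate measurement.

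The difference between subsets averaged over genotypes, and that between genotypes averaged over subsets, do not enter the interaction and could be tested, though the choice of genes by a small p also favours a small spread, which these tests share. Averaged over genotypes, 4 of the 5 genes rose in MoM, against 10.6% of all genes tested (18.7% were called in either direction, 8.05% lower in MoM). A small spread favoured by the choice can raise the count of 4, so nothing is read from it beside that share. Anpep was higher in MoM by a log2 fold change of 2.61 ± 0.19 (edgeR, adjusted p = 0.00347), made up of 4.01 ± 0.28 in WT and 1.21 ± 0.25 in TG. Smpdl3b was higher by 2.56 ± 0.31 (edgeR, adjusted p = 0.00942), with 0.65 ± 0.42 in WT and 4.48 ± 0.48 in TG. Hvcn1 was higher by 1.67 ± 0.18 (edgeR, adjusted p = 0.00721), with 2.74 ± 0.27 in WT and 0.60 ± 0.25 in TG. Each average therefore joins unequal parts.

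Kntc1 was higher by 0.85 ± 0.17 (edgeR, adjusted p = 0.0239), though the difference in WT was -0.19 ± 0.24 and that in TG 1.90 ± 0.25. For Htra1 the average was 0.04 ± 0.34 (adjusted p = 0.939), the mean of 3.03 ± 0.52 in WT and -2.94 ± 0.52 in TG. All 4 MoM libraries stood above all 4 Kupffer libraries for Anpep, Smpdl3b and Hvcn1, as for 14.8% of all genes. The call of Anpep held with each library left out in turn. That of Smpdl3b ended without Kupffer WT replicate 1 (adjusted p = 0.0713) or 2 (0.0731), and that of Hvcn1 without the same libraries (0.0504 and 0.0594). That of Kntc1 ended without either Kupffer WT library (0.12 and 0.108), either MoM TG library (0.0827 and 0.0788), Kupffer TG replicate 1 (0.0527) or MoM WT replicate 2 (0.0633).

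Averaged over subsets, none of the 5 genes was called for genotype in edgeR, and neither was any other gene (0%, with 6.40% at an unadjusted p below 0.05). The largest difference was that of Anpep, 1.42 ± 0.18 (adjusted p = 0.259), followed by Hvcn1 at 0.91 ± 0.18 (adjusted p = 0.438) and Smpdl3b at 0.82 ± 0.30 (adjusted p = 0.733). Kntc1 had -0.49 ± 0.17 (adjusted p = 0.718) and Htra1 0.40 ± 0.34 (adjusted p = 0.869). DESeq2 called 236 genes (1.55%), among them Anpep (adjusted p = 2.35e-07) and Hvcn1 (0.00527).

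Set against the length of their exons, the 5 genes spanned a wide range. In TG MoM Smpdl3b had 79.4 CPM per kb, Anpep 28.0, Hvcn1 17.7, Kntc1 2.00 and Htra1 0.460 CPM per kb. In WT Kupffer cells the order was Smpdl3b at 7.62, Hvcn1 at 2.96, Anpep at 1.72, Kntc1 at 1.56 and Htra1 at 0.337 CPM per kb. In TG Kupffer cells Anpep had 12.1, Hvcn1 11.7, Smpdl3b 3.57, Htra1 3.54 and Kntc1 0.535 CPM per kb, and in WT MoM Anpep had 27.7, Hvcn1 19.8, Smpdl3b 11.9, Htra1 2.76 and Kntc1 1.36 CPM per kb. Smpdl3b thus led and Htra1 came last in WT Kupffer cells and TG MoM, while Anpep led and Kntc1 came last in the other groups. Lengths are the union of GENCODE M21 exons, so a gene read mainly from a short form is set too low.

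The profiles of Anpep and Hvcn1 over the 8 libraries were close (Pearson r = 0.996 of log2(CPM + 0.5)). Among the 8916 genes whose mean reached 10 CPM, each was the other's nearest. The next nearest to both were Tctn1 (r = 0.99 with Hvcn1 and 0.98 with Anpep) and Bzw2 (0.99 with each). Tctn1, a gene of the ciliary transition zone on the minus strand (chromosome 5, 122237848 to 122264460), shares 1574 exonic bases with Hvcn1, 44.2% of the exons of Hvcn1. The strand setting of the counting is not given in the sources used here, so that reads in the shared stretch cannot be assigned to either gene with certainty. Tctn1 had 14.1 and 14.4 CPM in WT Kupffer cells, 27.9 and 37.6 CPM in TG Kupffer cells, 43.9 and 52.0 CPM in WT MoM and 35.7 and 51.8 CPM in TG MoM, the same order of groups as Hvcn1. Bzw2, which shares no such stretch, had log2 fold changes of 1.42 in Kupffer cells and 0.01 in MoM.

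**Figure D4:**
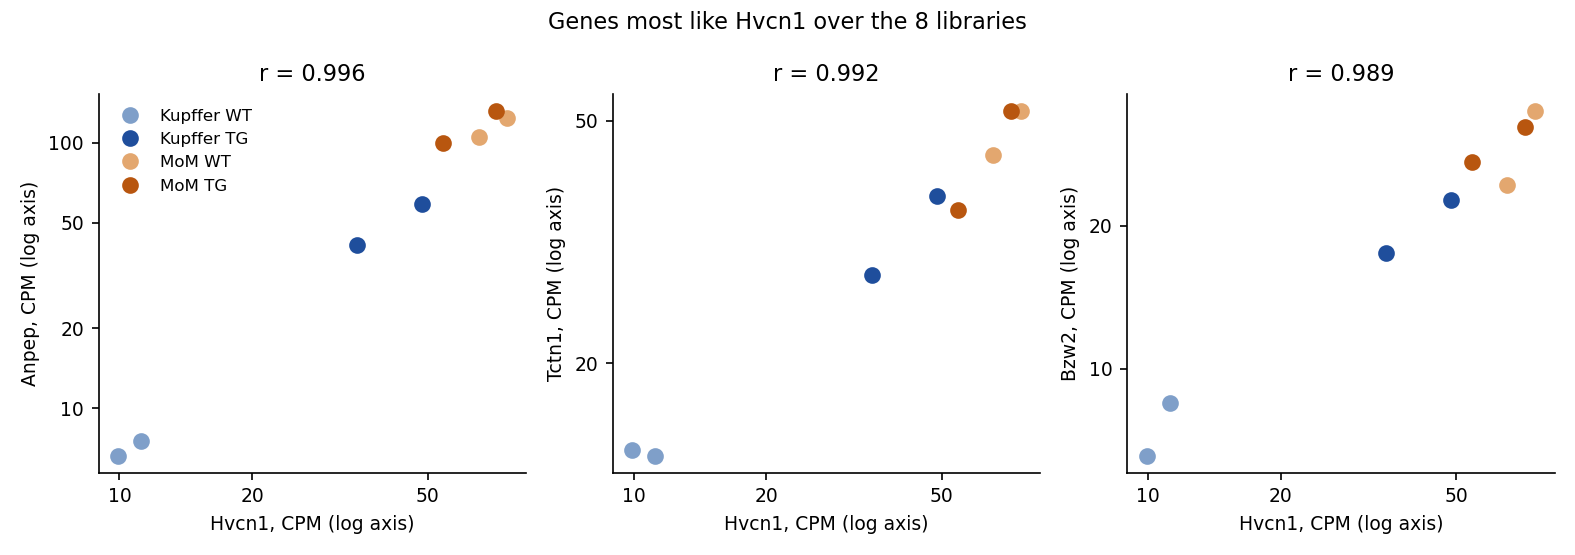
Levels of Anpep, Tctn1 and Bzw2 against Hvcn1 in CPM on log axes, 1 point per library coloured by group, with Pearson r of log2(CPM + 0.5) above each panel. WT Kupffer libraries lie at the lower left, TG Kupffer libraries in the middle and most MoM libraries at the upper right.

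Nearest to Smpdl3b were Gpcpd1, a glycerophosphocholine phosphodiesterase (r = 0.99), Nod2, an intracellular sensor of bacterial muramyl dipeptide (0.98), and Atad2b (0.98). Nod2 had 142 and 84.2 CPM in TG MoM against 26.0 and 41.0 CPM in WT MoM and 11.3 to 27.9 CPM in Kupffer cells. Nearest to Kntc1 were Hif1an, the hydroxylase that restrains HIF-1 (0.96), Cry1, a repressor of the circadian clock (0.95), and Strada (0.95). Cry1 had 11.6 and 10.3 CPM in TG Kupffer cells against 19.4 to 21.2 CPM in WT Kupffer cells. Nearest to Htra1 were Atp5j2, a subunit of ATP synthase (0.92), Rhbdd2 (0.90) and Mrps18b (0.87), with far smaller shifts than Htra1: Atp5j2 had log2 fold changes of 0.37 in Kupffer cells and -0.10 in MoM. These likenesses are over 8 libraries that fall into 4 groups, and the 5 genes were chosen for their group pattern.

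Genes that work beside each of the 5 were read from 5 lists. No list had a gene called in edgeR for the interaction or for genotype averaged over subsets. At an unadjusted p below 0.05 stood 2, 2, 1, 0 and 1 genes for genotype, in the order Anpep, Htra1, Smpdl3b, Kntc1 and Hvcn1, and 1, 3, 0, 0 and 1 for the interaction, while DESeq2 called 1 relative of Anpep for genotype and 0 genes for the interaction. Of 18 tested relatives of Anpep, other surface peptidases and nucleotidases, 3 rose and 2 fell in MoM averaged over genotypes (median log2 0.23, against 0.09 for all genes). Of all genes tested, 10.6% rose and 8.05% fell. Ace, the angiotensin-converting enzyme, rose by 6.32 ± 0.42 (edgeR, adjusted p = 0.00347), and Dpep2, a dipeptidase, by 4.40 ± 0.40 (0.00479). Entpd1, the ectonucleotidase CD39, fell by 1.69 ± 0.27 on the log2 scale (0.0157). Smallest in p for the interaction were Lnpep, a relative of Anpep (3.02 ± 1.05, edgeR, adjusted p = 0.626), and Enpep, aminopeptidase A (-5.68 ± 2.47, 0.626). Enpep had 107 and 103 CPM in the libraries rich in endothelial RNA and 1.59 to 36.4 CPM elsewhere. Without both libraries its interaction was 0.24.

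Of 20 tested relatives of Htra1, HtrA proteases and genes that store, activate or bind TGF-β, 2 rose and 0 fell in MoM (median 0.88). Among all genes tested 10.6% rose and 8.05% fell. Htra3, a secreted protease of the same family, had no count in Kupffer TG replicate 1, 0.0718 to 0.995 CPM in the other Kupffer libraries and 4.58 to 9.81 CPM in MoM (4.93 ± 1.10, edgeR, adjusted p = 0.0301). Its value was 8.32 without Kupffer TG replicate 2, and its call ended when either Kupffer WT library or any 1 MoM library was left out (edgeR, adjusted p from 0.0511 to 0.13). Thbs1, thrombospondin 1, an activator of latent TGF-β, rose by 3.91 ± 0.89 (0.0318). The list's median interaction was -2.66 against -0.12 for all genes, the direction of Htra1, with 5 of 20 positive. Without both libraries rich in endothelial RNA that median was -0.26 over 21 genes, while the value of Htra1 itself was -6.10. Smallest in p were Htra2, a mitochondrial protease (1.01 ± 0.37, edgeR, adjusted p = 0.626), and Ltbp1 (-5.65 ± 2.25, 0.626), which stayed below 5 CPM in all libraries.

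Of 28 tested genes of sphingomyelin and ceramide metabolism, 2 rose and 7 fell in MoM (median -0.29). The shares of all genes were 10.6% and 8.05%. Smpdl3b thus went against most called genes of its list. Smpdl3a, its closest relative, fell by 1.20 ± 0.20 on the log2 scale (edgeR, adjusted p = 0.0168), from 497 to 764 CPM in Kupffer cells to 243 to 338 CPM in MoM. Cers5, a ceramide synthase, rose by 0.78 ± 0.13 (edgeR, adjusted p = 0.0166). The median interaction was -0.03, and the smallest p belonged to the ceramidases Acer3 (0.64 ± 0.27, edgeR, adjusted p = 0.626) and Acer2 (-5.42 ± 2.64, 0.626). Acer2 stood at 445 CPM in Kupffer TG replicate 2 and 4.57 to 13.4 CPM in the other Kupffer libraries.

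Of 28 tested partners of Kntc1 at the kinetochore and in the spindle checkpoint, 12 rose and 1 fell in MoM (median 0.98). Of all genes 10.6% rose and 8.05% fell. Bub1, a checkpoint kinase, rose by 1.86 ± 0.25 (edgeR, adjusted p = 0.0115), Knl1, its platform at the kinetochore, by 2.04 ± 0.29 (0.0126) and Cenpa, the centromeric histone, by 1.28 ± 0.19 (0.0143). For the shift in Kupffer cells that marked Kntc1 the partners had a median of -0.07, and 4 of 28 were lower and 1 higher in both TG libraries, against 17.7% lower and 16.7% higher among all genes. The median interaction was 0.07. Its smallest p belonged to Mad2l1 (-0.74 ± 0.45, edgeR, adjusted p = 0.647) and Knl1 (0.85 ± 0.56, 0.661). A CCAAT box, of which the Kntc1 promoter printed above holds 2, was found in 14 of the 23 partners with a promoter entry (60.9%) and in 37.5% of all 27025 genes. In the other lists 26.7% to 42.9% of genes held it. The cell cycle homology region was found in 5 of the 23 partners (21.7%) and in 19.6% of all genes. A GC box was found in 12 of the 23 and in 9555 of all genes, and an E2F site in 1 and in 407.

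Of 21 tested partners of Hvcn1 in the phagocyte oxidase and phagosomal ion transport, 2 rose and 5 fell in MoM (median -0.32). Of all genes 10.6% rose and 8.05% fell. The potassium channels Kcnn4 and Kcna3 rose by 4.58 ± 0.47 (edgeR, adjusted p = 0.0059) and 3.16 ± 0.53 (0.017), and Slc26a11, an anion transporter, fell by 0.96 ± 0.20 (0.0262). Kcnn4 also had the smallest p for the interaction (-2.62 ± 0.83, edgeR, adjusted p = 0.626), with 1.81 and 6.19 CPM in TG and 1.00 and 0.784 CPM in WT Kupffer cells. Cybb, the catalytic subunit of the oxidase, came next, with the opposite sign to Hvcn1 (1.23 ± 0.53, 0.626). It had 2047 and 1039 CPM in TG and 1969 and 1705 CPM in WT Kupffer cells, and 1359 and 1615 CPM in TG and 767 and 741 CPM in WT MoM. The median interaction of the list was 0.25.

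These list counts hung on single libraries. Without either Kupffer WT library or either MoM TG library, 2 surface peptidases were called in each of the 4 fits, 0 relatives of Htra1 and 0 genes of sphingomyelin metabolism, 0 to 4 kinetochore genes and 0 to 2 partners of Hvcn1. Without MoM WT replicate 2 the counts were 0 for Htra1, 3 for sphingomyelin, 4 for the kinetochore and 4 for Hvcn1. Without Kupffer TG replicate 1 they were 1 for Htra1, 7 for the kinetochore and 4 for Hvcn1. Without Kupffer TG replicate 2 they were 9 for the surface peptidases, 8 for Htra1 and 11 for Hvcn1.

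**Figure D5:**
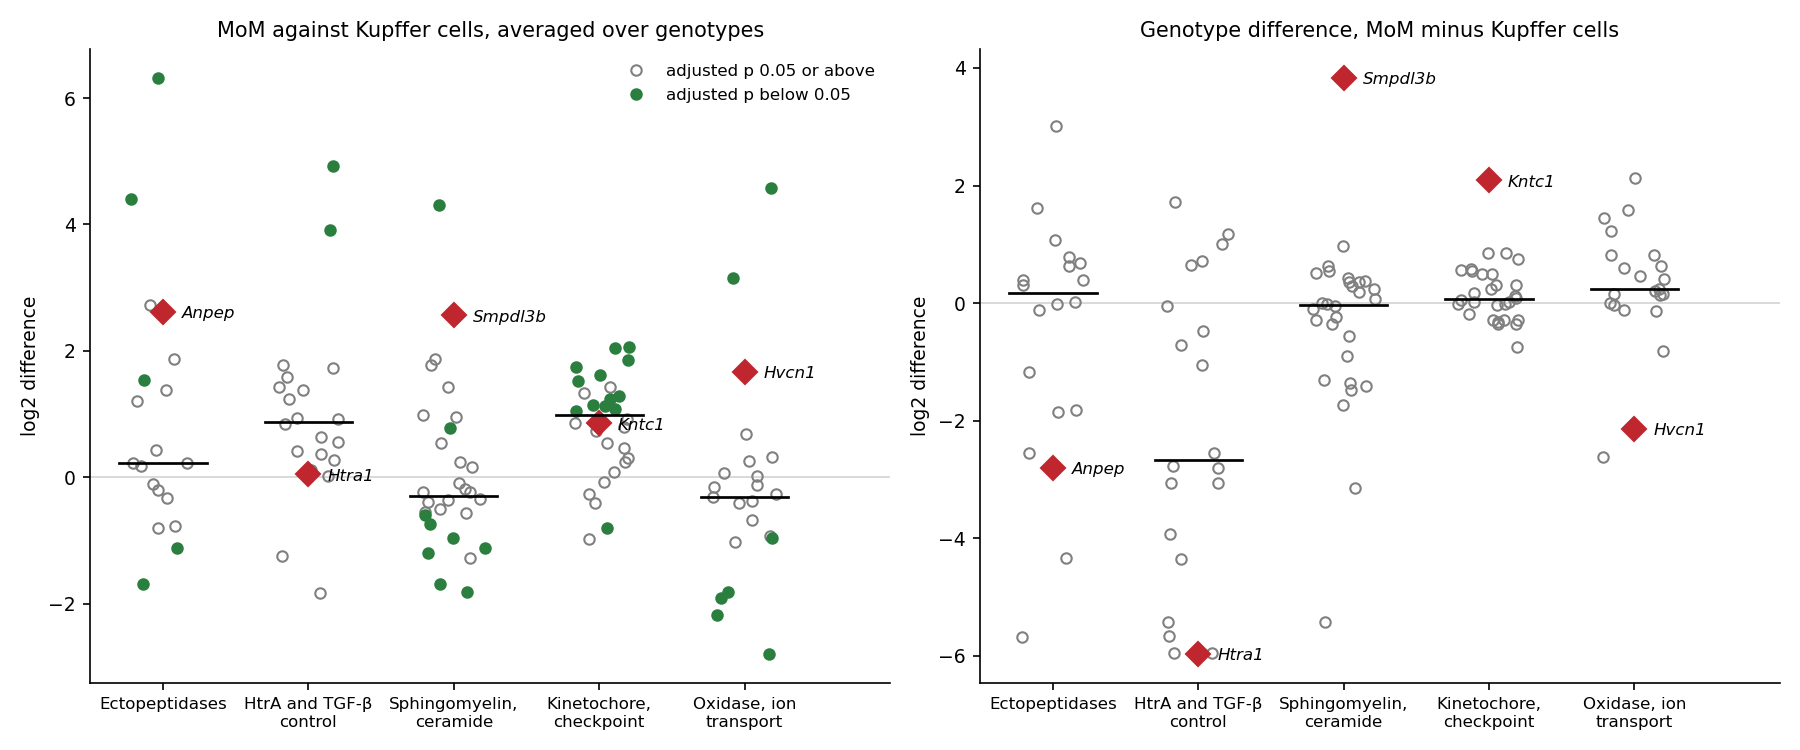
Log2 difference of the tested genes of 5 related lists (circles, green where the adjusted p was below 0.05) with the list's median as a line and the gene it was built around as a red diamond, for MoM against Kupffer cells (left) and for the interaction (right). In the right panel no circle is green, and Smpdl3b (3.83) and Kntc1 (2.09) lie above every gene of their lists. The diamonds were chosen on this contrast and the circles were not, so nothing is read from their distance there.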

How the data were processed

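Messenger RNA was measured in 8 libraries, with groups and replicate numbers taken from the sample titles. Reads were aligned to mm10 with STAR 2.5.2b, per the submitters' processing notes. The authors' deposited files give counts, 1 whole number per gene symbol and library. The counter, annotation and strand rule were not given in the sources used here. Below 20, 65.0% to 68.0% of the counts above 0 were even numbers. Per the file headers, the authors' table holds a mean of normalized counts (a signal), a log2 fold change with SE, a Wald score and p-values, set out as DESeq2 does. Of 24786 symbols, 24255 matched GENCODE M21 (GRCm38, the assembly of mm10).

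The 4 group means were fitted over all libraries in edgeR 4.0.16 under R 4.3.3, with filterByExpr, TMM and the quasi-likelihood F-test, with p adjusted by Benjamini-Hochberg over 15254 genes and calls at 0.05. The fit had 4 residual and 2.37 prior degrees of freedom and a common biological coefficient of variation of 0.507. It was tested on simulated data. Alternatives were other scalings, no low-count filter, DESeq2 1.42.0, a replicate block, each library left out, and Kupffer TG replicate 2 with MoM WT replicate 1 left out. The genes and lists were chosen with earlier results of these data known. Named were the 5 genes, up to 3 called genes per list and comparison, the 2 smallest p of each list for the interaction, and the 3 genes most like each. Predicted genes were left out, and 1 gene that this rule names is not reported here. Of 12 marker lists, the T cell, B cell and cholangiocyte lists summed to 70.7 to 277, 24.5 to 358 and 1.04 to 364 CPM. Figures were drawn with matplotlib 3.10.9.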

Additional observations from a re-analysis of the deposited data

Results flagged for a closer look

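For 3 of the 5 genes both TG libraries lay on one side of both WT libraries in Kupffer cells and on the other side in MoM: Htra1 (interaction -5.97 on the log2 scale), Smpdl3b (3.83) and Kntc1 (2.09). The difference was not tested, since it chose these genes, and 6.58% of all genes tested showed such opposite shifts.

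Among the genes of the related lists named here, Lnpep (3.02), Htra2 (1.01) and Acer3 (0.64) showed the same arrangement, each lower in TG Kupffer cells and higher in TG MoM. Their interaction gave an adjusted p of 0.626 in edgeR, so the difference did not pass the test. Lnpep had 149 and 49.9 CPM in TG and 187 and 221 CPM in WT Kupffer cells, and 232 and 97.8 CPM in TG and 20.4 and 63.2 CPM in WT MoM.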

How the results depend on the processing

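For the subset difference averaged over genotypes, edgeR called 2845 genes, DESeq2 4576, the fit without both libraries rich in endothelial RNA 4972, and the fits with 1 library left out 84 to 4458 (84 without Kupffer WT replicate 2, 152 without Kupffer WT replicate 1, 369 and 698 without MoM TG replicate 1 and 2, 1185 without MoM WT replicate 2, 1815 and 4458 without Kupffer TG replicate 1 and 2). For genotype averaged over subsets the count was 0 in edgeR under each alternative and 236 in DESeq2. For the interaction it was 0, against 51 in DESeq2 and 0 to 83 with 1 library left out (83 without Kupffer TG replicate 1). With library totals in place of TMM the median subset difference of all genes moved from 0.09 to 0.22 and the median interaction from -0.12 to -0.27.

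With 1 library left out, the subset difference (log2) ran from 2.45 to 2.71 for Anpep, 2.27 to 2.77 for Smpdl3b, 0.76 to 0.88 for Kntc1, 1.51 to 1.76 for Hvcn1 and -0.24 to 0.29 for Htra1. The sign of Htra1 turned without Kupffer TG replicate 2 (-0.24), Kupffer WT replicate 1 (-0.066), MoM TG replicate 2 (-0.12) and MoM WT replicate 1 (-0.14), with DESeq2 size factors (-0.0046), without the filter (-0.026), in DESeq2 (-0.0029) and without both libraries (-0.42). In DESeq2 the genotype difference of Anpep (1.42) and Hvcn1 (0.91) passed the threshold. The interaction of Smpdl3b was 3.21 without both libraries. It kept its sign for each of the 5 genes under each alternative.

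Counts of called genes for the subset difference in the related lists ran, with 1 library left out, from 2 to 9 for Anpep, 0 to 8 for Htra1, 0 to 11 for Smpdl3b, 0 to 14 for Kntc1 and 0 to 11 for Hvcn1. Without both libraries they were 10 for Anpep, 10 for Htra1 and 11 for Hvcn1. They were 6 for Htra1 and 14 for Smpdl3b in DESeq2, and 4 for Htra1 with library totals. For genotype DESeq2 called 1 gene of the Anpep list. For the interaction the counts for Anpep and for Smpdl3b were 0 to 1. The interaction of Enpep turned to 0.24 and that of Acer2 to 0.82 without both libraries, and with 1 library left out that of Acer2 ran from -7.81 (without MoM TG replicate 2) to 0.11 (without Kupffer TG replicate 2). With log2(CPM + 2), Mrps18b (r = 0.85) and Strada (0.95) left the nearest 3. The causes were not tested.

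A replicate block gave 3171 called genes for the subset difference and 0 for the others, and ended no call of the 5 genes. The deviations of libraries with the same number correlated between Kupffer cells and MoM at 0.59 in TG and -0.0725 in WT. For the other pairs of groups the values were 0.125 to 0.271. The labels state no pairing, and the numbers were not taken to pair the samples. A shared source within TG was not tested, since the block fits the same effect in all groups. With 2 libraries a group, the smallest fits rest on 1 library of a group, assumed to vary like the others. Htra1, at 25 to 360 counts, is the gene most limited by depth.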

Other observations

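Behind the 5 genes and Rab30 in the order of interaction p came a run of Ugt1a genes, which encode enzymes that attach glucuronic acid to bilirubin, hormones and drugs. Ugt1a2, Ugt1a7c, Ugt1a10, Ugt1a6b and Ugt1a5 held 5 of the ranks from 7 to 12, with log2 fold changes of -0.49 to -0.58 in Kupffer cells and 1.19 to 1.22 in MoM. Forms of this locus share their last exons, so these are not separate measurements, and the adjusted p of each was 0.626 in edgeR. Between them stood Pag1, a membrane adaptor that regulates Src family kinases, with -0.85 in Kupffer cells and 1.62 in MoM. These genes were singled out after their values were seen.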
